A study of Mus musculus with 33 samples.

Results

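The change of the sort gap from day 12 of reprogramming to the induced pluripotent stem (iPS) stage was read from poly-A RNA libraries of mouse cells. Its members are 12 of the series' 33 libraries, 3 in each of 4 groups, taken by their labels. The groups are iPS SSEA1+, iPS SSEA1-, d12 SSEA1+ and d12 SSEA1-, where d12 stands for day 12. All came from cells of the strain labelled 129SV/Jae/C57BL6J, which the labels call reprogramming intermediates. The cells were reprogrammed in medium for embryonic stem cells that contained doxycycline (labelled dox) and AA, were detached with trypsin, stained with antibodies and sorted by flow cytometry. The labels do not say which factors were induced, whether the iPS cells still received doxycycline, or whether libraries of 1 group came from separate cultures, so the p-values speak only of how far these libraries spread, which may be technical.

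SSEA1 is a fucosylated sugar chain that mouse embryonic stem cells carry on their surface and fibroblasts lack. During reprogramming, fibroblasts that proceed lose Thy1, gain SSEA1 and later turn on the pluripotency network, while cells that stall stay SSEA1 negative and keep parts of the fibroblast programme. Switching off fibroblast genes involves the loss of somatic enhancers and the spread of repressive chromatin marks over positional regulators such as the Hox genes.

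For each gene the sort gap at a stage is the log2 fold of SSEA1+ over SSEA1- cells, and the gap change is the iPS gap minus the day 12 gap. A negative gap change means that SSEA1+ cells lost transcript relative to SSEA1- cells between the stages. The step of a fraction is its log2 fold of the iPS stage over day 12, and the gap change equals the SSEA1+ step minus the SSEA1- step. These quantities share libraries and are given side by side. A gene was called if its Benjamini-Hochberg adjusted p, from edgeR's quasi-likelihood test, was under 0.05 and its fold 2 or more. Levels are given in CPM after TMM scaling of the library sizes, and folds carry standard errors.

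The 12 libraries held 16.7 to 28.36 M reads in genes, and 3 counts, the limit that a count of 0 allows, correspond to 0.0966 to 0.167 CPM for counting error only. The labels were checked against markers. Thy1, a fibroblast surface marker, stood at 7.91, 6.85 and 10.9 CPM in iPS SSEA1+ cells and 267, 812 and 621 CPM in iPS SSEA1- cells, and at 9.35, 15.5 and 32 CPM in d12 SSEA1+ cells and 462, 704 and 557 CPM in d12 SSEA1- cells. The fractions were therefore far apart at both stages. iPS SSEA1- replicate 3 stood apart from its group, with 441 CPM of the pluripotency factor Nanog against 21.4 and 59.5 CPM in the others. Its Thy1 level lay within that of its group. Several results that rest on it, though not all, are given with and without it. As these are bulk samples, fewer cells of a type and less RNA per cell cannot be told apart.

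The gap change was called for few genes, mostly negative ones, and their number depended on the fit. Of 17326 genes tested, 321 were called (1.85%), of which 250 were negative (1.44%) and 71 positive (0.41%). Within a stage the gap itself was called for 6475 genes at the iPS stage (37.4%) and 6227 genes at day 12 (35.9%). At the iPS stage 16% of all genes were called higher in SSEA1+ cells and 21.3% lower. At day 12 these shares were 18% and 18%. Counts of list members higher or lower in SSEA1+ cells at a stage are such calls. The steps were called for 1645 genes in SSEA1+ cells (9.49%) and 1250 genes in SSEA1- cells (7.21%). The median gap change over all genes was -0.159, and 10719 genes had a negative value (61.9%), so single values are best read against that shift. Without iPS SSEA1- replicate 3 the median was 0.002 and 645 genes were called. A fit of the 12 libraries alone called 0 genes, with a smallest adjusted p of 0.093 and 1882 genes at an unadjusted p under 0.05, against 2337 genes (13.5%) with all 33 libraries. DESeq2 called 648, and a replicate block gave 497. Of the 321 genes, 317 could be fitted in the 12 libraries alone, and all 317 kept their sign. Both fits take the group means from the same 12 libraries, so the kept signs are no separate support. In every combination of 1 library per group 824 genes had the same sign (4.76%), and 228 of these were called (1.32%). Leaving out 1 library at a time gave 135 to 645 calls, and 85 genes, 69 negative and 16 positive, were called with all libraries and in all 12 such fits.

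Among the 250 negative genes, 193 had a gap that widened with the same sign, 47 had fitted gaps of opposite sign and 10 had a gap that narrowed. Of the 47, both gaps were called in 5. The SSEA1+ step was called down for 202 of the 250 (5.75% of all genes were), and the SSEA1- step was called up for 33 (4.72% of all genes were). Both shares follow in part from how the genes were chosen. The positive genes were arranged otherwise: in 55 of the 71 the fitted gaps had opposite signs, in 12 the gap narrowed and in 4 it widened. Of the 55, both gaps were called in 7, so most opposite signs rest on a gap that was not called. Neither gap was called in 17 of the 71. Of these 71, 33 had a called fall in SSEA1- cells (2.5% of all genes) and 22 a called rise in SSEA1+ cells (3.74% of all genes). The group with the highest mean level was iPS SSEA1- for 130 of the negative genes (21.7% of all genes) and d12 SSEA1- for 90 (25.8% of all genes). It was d12 SSEA1- for 48 of the positive genes. These counts too follow in part from how the genes were chosen.

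**Figure D1:**
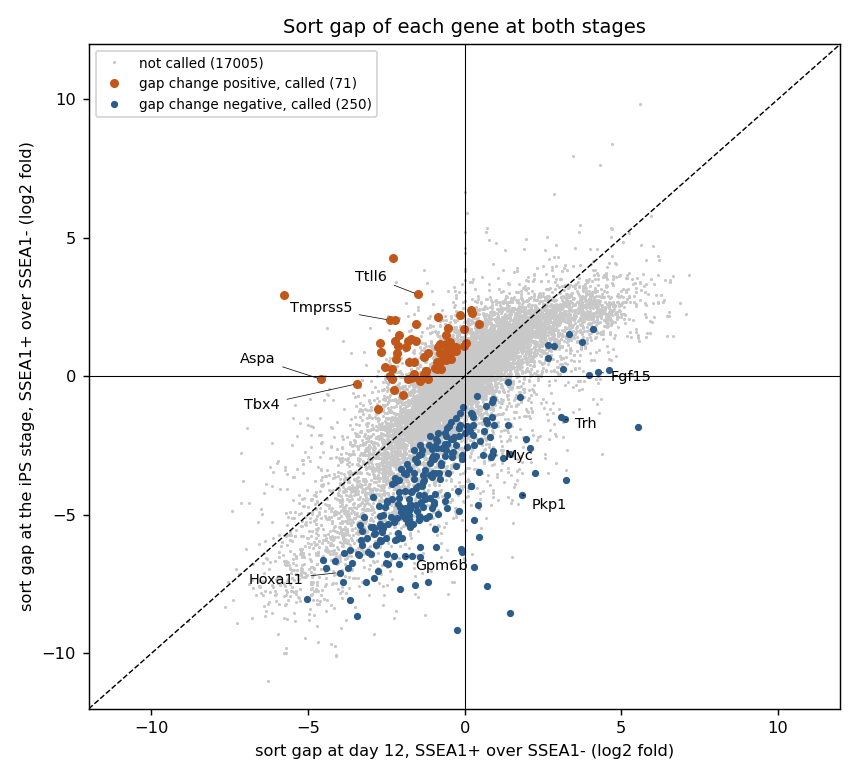
Sort gap of every tested gene at the iPS stage (vertical axis) against day 12 (horizontal axis), both as log2 fold of SSEA1+ over SSEA1- cells; the dashed line marks equal gaps. The 250 genes with a called negative gap change lie below the line and mostly in the lower left, and the 71 with a called positive one lie above it, mostly left of the vertical zero line.

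Libraries of earlier days, which the contrast does not use, show when these genes parted. In the 250 negative genes the median gap, from group means of log2 CPM, was -0.24 at day 3, -0.36 at day 6, -0.56 at day 9, -1.34 at day 12 and -3.77 at the iPS stage. The last pair of values comes from the libraries that chose the genes. Over all genes the median gap stayed between -0.02 and 0.08. The median level of the negative genes in SSEA1+ cells was 4.26, 4.22 and 4.16 log2 CPM at days 3, 6 and 9, 3.38 at day 12 and 1.01 at the iPS stage, while in SSEA1- cells it ran only from 4.63 to 4.82 over the 5 stages, against 5.22 in embryonic fibroblasts (MEFs). For the 71 positive genes the median gap was -0.08, -0.33, -0.6 and -1.24 at days 3, 6, 9 and 12 and 0.85 at the iPS stage. Here too the day 12 and iPS values come from the libraries that chose the genes. The median level of the positive genes in MEFs was 3.4 log2 CPM, below the 4.52 to 5 in SSEA1- cells of days 3 to 12.

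**Figure D2:**
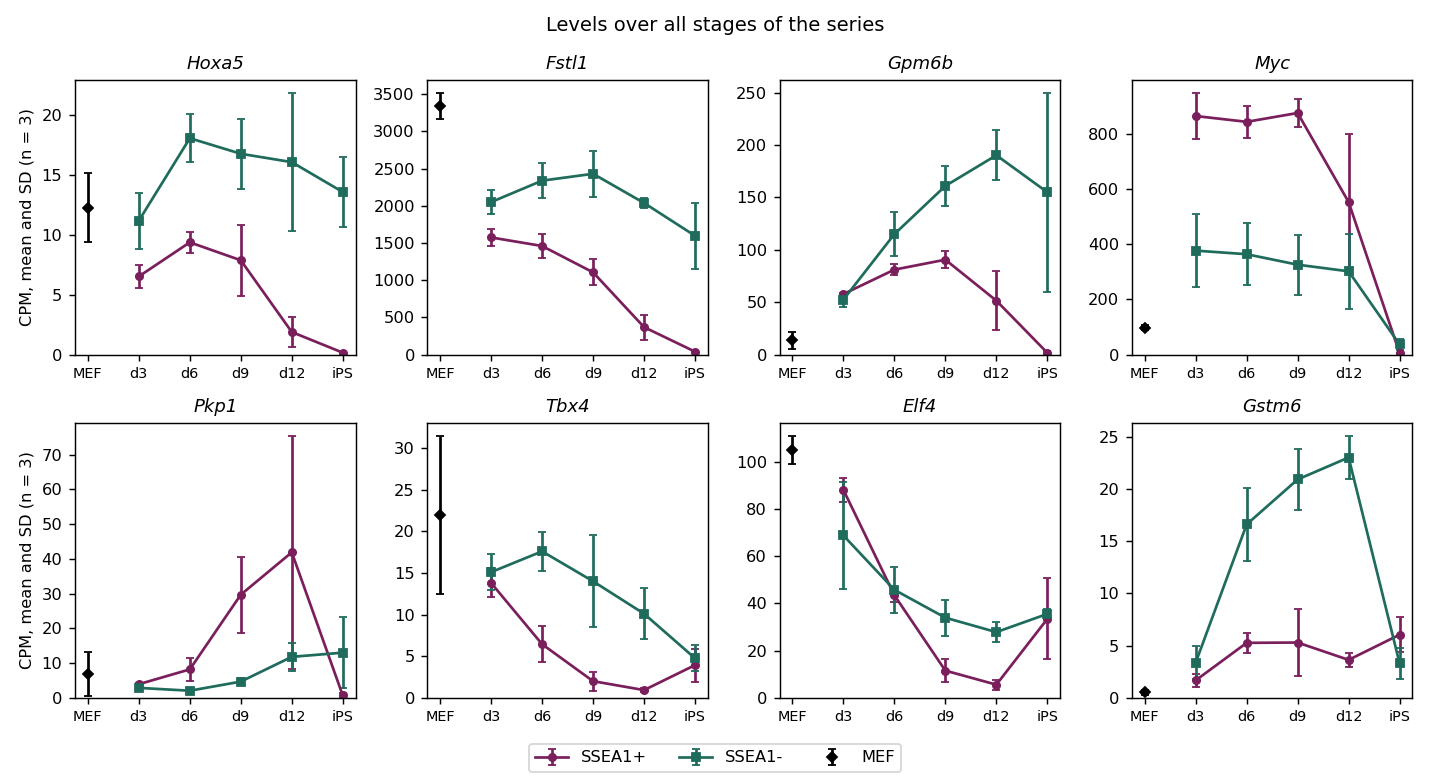
Mean level in CPM with SD (n = 3) of 8 genes in MEFs and in SSEA1+ and SSEA1- cells of days 3, 6, 9 and 12 and the iPS stage. Hoxa5, Fstl1 and Gpm6b are near 0 in iPS SSEA1+ cells and not in iPS SSEA1- cells, the mean of Pkp1 in SSEA1+ cells is highest at day 12 and near 0 at the iPS stage, Tbx4 and Elf4 are low in day 12 SSEA1+ cells and higher again in iPS SSEA1+ cells, and Gstm6 is low in iPS SSEA1- cells.

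Hox genes, which encode the homeodomain factors that set position along the body axis, held the most called members of any list with all 33 libraries, though without iPS SSEA1+ replicate 1 the fibroblast matrix list held 12 and the Hox list 6. Of 36 tested, 8 were called (22.2%), all negative: Hoxa2, Hoxa3, Hoxa5, Hoxa7, Hoxa10, Hoxa11, Hoxb3 and Hoxd10. The median gap change was -1.72, beside -0.16 over all genes. In SSEA1+ cells 18 Hox genes fell from day 12 to the iPS stage and 1 rose, and in SSEA1- cells none was called (median step -0.22). Leaving out 1 library gave 5 to 12 negative calls and at most 1 positive one.

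The promoters of Hoxa3, Hoxa5 and Tbx4 are shown because these positional regulators moved in opposite directions. Each spans 250 bases before to 50 after the start of the gene, on the gene's strand, from RefSeq on GRCm38.p6, with CG dinucleotides, the methylatable step, in capitals. Hoxa3 lies at chr6:52213018-52213317 (- strand), Hoxa5 at chr6:52204538-52204837 (- strand) and Tbx4 at chr11:85896515-85896814 (+ strand). The 2-letter motif CG reads the same on both strands.
Hoxa3: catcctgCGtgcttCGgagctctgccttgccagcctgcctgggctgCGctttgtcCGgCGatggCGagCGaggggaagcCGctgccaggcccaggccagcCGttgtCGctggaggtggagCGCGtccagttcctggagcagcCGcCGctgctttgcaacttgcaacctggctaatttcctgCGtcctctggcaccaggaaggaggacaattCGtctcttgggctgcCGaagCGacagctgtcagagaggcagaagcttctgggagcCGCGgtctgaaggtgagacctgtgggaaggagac
Hoxa5: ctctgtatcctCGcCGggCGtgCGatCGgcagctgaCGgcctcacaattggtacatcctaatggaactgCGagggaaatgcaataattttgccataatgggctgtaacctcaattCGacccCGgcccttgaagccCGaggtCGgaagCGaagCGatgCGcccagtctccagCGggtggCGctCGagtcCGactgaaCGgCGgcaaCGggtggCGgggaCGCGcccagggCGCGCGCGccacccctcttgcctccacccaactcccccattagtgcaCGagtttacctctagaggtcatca
Tbx4: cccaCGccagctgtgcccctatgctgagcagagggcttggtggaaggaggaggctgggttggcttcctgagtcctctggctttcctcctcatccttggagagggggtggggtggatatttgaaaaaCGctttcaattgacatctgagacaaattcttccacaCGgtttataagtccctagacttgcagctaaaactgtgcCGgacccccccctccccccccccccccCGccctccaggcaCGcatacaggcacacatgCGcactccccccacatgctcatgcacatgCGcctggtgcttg
There are 20 CG steps in the Hoxa3 promoter, 29 in that of Hoxa5 and 8 in that of Tbx4. Over the 32851 promoters of the same length in that table the median was 7, and 94.6% held at least 1. Fewer steps than in Hoxa3, Hoxa5 and Tbx4 were found in 73.5%, 87.1% and 51.4% of them. Whether CG steps or their methylation relate to the gap change was not tested.

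Hoxa5 had 0.0531, 0.223 and 0.21 CPM in iPS SSEA1+ cells and 11.3, 16.9 and 12.8 CPM in iPS SSEA1- cells. At day 12 it had 0.546, 2 and 3.13 CPM in SSEA1+ cells and 14.8, 22.5 and 11.1 CPM in SSEA1- cells. Every iPS SSEA1+ library lay below every d12 SSEA1+ library, and the SSEA1- groups overlapped. In iPS SSEA1+ replicate 1 Hoxa5 was under the limit of 3 counts (0.159 CPM), and in replicates 2 and 3 little above it (0.167 and 0.157 CPM). The size of its iPS gap thus rests on few reads. The gap was -6.35 ± 0.53 at the iPS stage and -3.1 ± 0.42 at day 12, a gap change of -3.25 ± 0.65 (adjusted p = 0.009, edgeR).

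Hoxa3 had 0.0531, 0.334 and 0.21 CPM in iPS SSEA1+ cells and 6.38, 7.02 and 6.63 CPM in iPS SSEA1- cells, against 1.6, 2.25 and 3.13 CPM in d12 SSEA1+ cells and 4.12, 5.71 and 5.42 CPM in d12 SSEA1- cells. Its SSEA1- levels were a little higher at the iPS stage, without overlap, and its step there was not called (0.39 ± 0.42). The gap change was -3.91 ± 0.67 (adjusted p = 0.0031, edgeR). In iPS SSEA1+ replicate 1 Hoxa3 too was under the limit of 3 counts. Hoxa11, a limb and kidney regulator, had 0.0531, 0.111 and 0.0525 CPM in iPS SSEA1+ cells, all under the limit of 3 counts, and 0.291, 0.978 and 1.45 CPM in d12 SSEA1+ cells. In SSEA1- cells it had 11.5, 12.9 and 7.08 CPM at the iPS stage and 16.6, 13.9 and 12.2 CPM at day 12. Its gap change was -3.1 ± 0.62 (adjusted p = 0.0093, edgeR).

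Not all Hox genes followed. Of the 30 tested genes with paralog numbers 1 to 11, 27 had a negative gap change, 8 of them called, with a median of -2.13. Of the 6 with paralog numbers 12 and 13, the most posterior ones, 5 had a positive value and none was called (median 0.59). This split was drawn after the values were seen and carries no test. Hoxa13 stood at 0.797, 0.557 and 1.15 CPM in iPS SSEA1+ cells and 0.328, 0.383 and 0.327 CPM in d12 SSEA1+ cells, with no overlap, and its gap change was 1.74 ± 0.56 (adjusted p = 0.11, edgeR). Hoxd13 had 1.17, 1.34 and 2.52 CPM in iPS SSEA1+ cells and 1.06, 0.893 and 0.7 CPM in d12 SSEA1+ cells (gap change 1.24 ± 0.63, adjusted p = 0.39, edgeR).

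**Figure D3:**
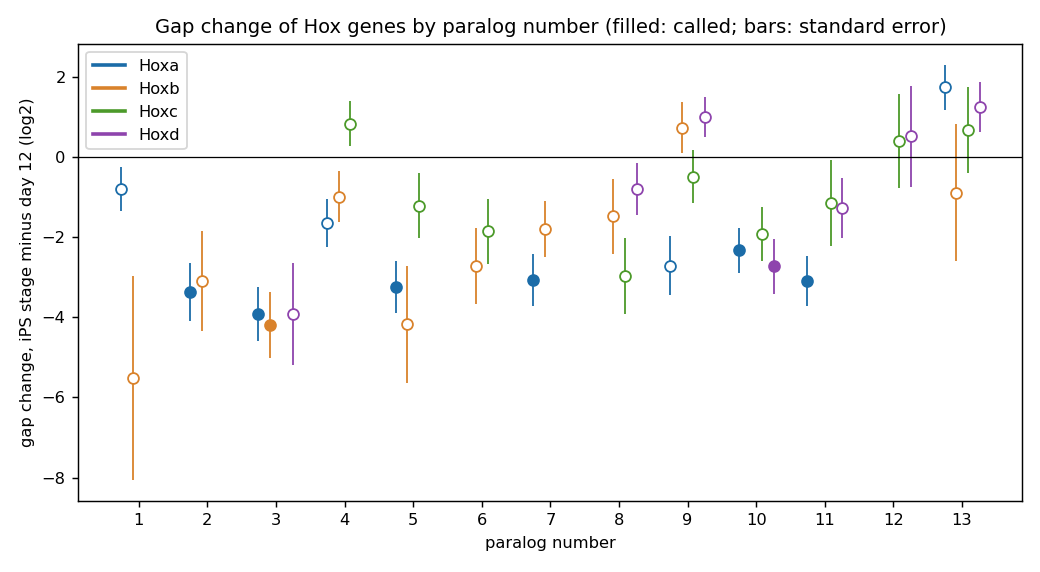
Gap change (log2, iPS stage minus day 12) of the 36 tested Hox genes by paralog number, coloured by cluster; filled points are called, open points are not, and bars are standard errors. The 8 called genes lie between paralog numbers 2 and 11 and below 0; 5 of the 6 genes of paralog numbers 12 and 13 lie above 0.

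One library weighed on these genes. The mean level of the Hox list, in log2(CPM + 1), was 0.59, 0.52 and 0.58 in iPS SSEA1+ cells and 0.62, 1.06 and 1.27 in d12 SSEA1+ cells, so d12 SSEA1+ replicate 1 was close to the iPS libraries. Without it 12 Hox genes were called negative.

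Meis1, a homeodomain cofactor that binds DNA with Hox proteins and was named after its values were seen, had 2.71, 1.89 and 0.839 CPM in iPS SSEA1+ cells and 57.9, 32 and 17.1 CPM in iPS SSEA1- cells. At day 12 the fractions lay close, at 14.2, 25.7 and 35.6 CPM in SSEA1+ cells and 36.3, 36.3 and 38.1 CPM in SSEA1- cells. The gap was -4.3 at the iPS stage and -0.55 at day 12, and the gap change was -3.74 ± 0.56 (adjusted p = 0.00072, edgeR). It was called in all 12 fits that left out 1 library.

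Tbx4, the T-box factor of the developing hindlimb and lung, went the other way and was named by rule. It had 6.21, 3.01 and 2.57 CPM in iPS SSEA1+ cells and 5.08, 6.11 and 3.05 CPM in iPS SSEA1- cells. At day 12 it had 1.02, 1.06 and 0.7 CPM in SSEA1+ cells and 12.9, 10.6 and 6.84 CPM in SSEA1- cells. The fractions overlapped at the iPS stage and were far apart at day 12, with gaps of -0.27 ± 0.43 and -3.44 ± 0.47. The gap change was 3.17 ± 0.62 (adjusted p = 0.008, edgeR), called in each of the 12 fits that left out 1 library. In SSEA1+ cells its mean had been 13.8 ± 1.74, 6.44 ± 2.19 and 2 ± 1.13 CPM at days 3, 6 and 9 (SD, n = 3 each).

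Fibroblast genes were already low in SSEA1+ cells at day 12, and a few fell further. All 30 tested genes of the fibroblast matrix list were lower in SSEA1+ cells at the iPS stage and at day 12. Their median gap was -6.76 at the iPS stage and -4.33 at day 12. The gap change was negative in 28 of the 30 and called for 3 (10%), with a median of -1.74. The number called ran from 1 to 12 when 1 library was left out, and was 12 without iPS SSEA1+ replicate 1. The list level in that library was 4.58, against 3.11 and 3.18 in the others of its group and 4.51, 4.59 and 5.26 in d12 SSEA1+ cells.

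Fstl1, a secreted glycoprotein of mesenchymal cells, had 55.1, 25.7 and 37.1 CPM in iPS SSEA1+ cells and 1157, 2037 and 1594 CPM in iPS SSEA1- cells. At day 12 it had 212, 347 and 549 CPM in SSEA1+ cells and 2043, 1963 and 2106 CPM in SSEA1- cells. The SSEA1+ groups stood well apart, while 1 iPS SSEA1- library lay within the d12 SSEA1- range. The gap change was -2.88 ± 0.37, with the smallest adjusted p of all genes (0.00025, edgeR). Fbn1, the microfibril protein fibrillin, and Col6a2, a chain of collagen VI, had gap changes of -2.52 ± 0.58 (adjusted p = 0.022) and -3.53 ± 0.82 (adjusted p = 0.023, edgeR). They were called in 6 and 7 of the 12 fits with 1 library left out. Col1a1, the main fibrillar collagen chain, had a gap change of -1.7 ± 1.14 and was not called (adjusted p = 0.57).

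Of 23 mesenchymal regulators and surface genes, 22 were lower in SSEA1+ cells at the iPS stage and 19 at day 12, and the gap change was called negative for Zeb2 and Cd44 (8.7%, median -1.27). Cd44, the hyaluronan receptor, had 6.43, 2.17 and 1.31 CPM in iPS SSEA1+ cells and 230.1, 439 and 403 CPM in iPS SSEA1- cells. In d12 SSEA1+ cells it had 18.4, 32.5 and 56.7 CPM, and in d12 SSEA1- cells 584, 412 and 315 CPM. The SSEA1+ groups did not overlap and the SSEA1- groups did, and the gap change was -3.15 ± 0.66 (adjusted p = 0.013, edgeR). Zeb2, a repressor of epithelial genes, had 22.2 CPM in d12 SSEA1+ replicate 1 against 2.25 and 3.45 CPM in the other libraries of that group. Its gap change was -3.71 ± 0.79 with all libraries and -1.99 in the weakest of the fits that left one out, and 10 of the 12 fits called it.

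The Wnt and TGF-beta lists held 1 called gene each, both negative, where 1.44% of all genes were called negative. Wnt5a, a non-canonical Wnt ligand, had 2.5, 1.73 and 0.525 CPM in iPS SSEA1+ cells and 52, 79.2 and 62.1 CPM in iPS SSEA1- cells. At day 12 it had 5.97, 9.82 and 20 CPM in SSEA1+ cells and 42, 37.7 and 31.2 CPM in SSEA1- cells. None of the 4 groups overlapped, and the gap change was -3.71 ± 0.63 (adjusted p = 0.0026, edgeR). It was the only one of 34 Wnt genes called (2.94%). Tgfb2, a TGF-beta ligand, had 3.4, 1 and 1.78 CPM in iPS SSEA1+ cells and 6.77, 7.06 and 20.1 CPM in d12 SSEA1+ cells, with a gap change of -2.8 ± 0.55 (adjusted p = 0.0082, edgeR). It was the only call among 26 TGF-beta and activin genes (3.85%). The median of that list was -1.04, and -0.42 without iPS SSEA1- replicate 3.

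Csf1, the macrophage colony-stimulating factor, and Il33, an alarmin cytokine, were the 2 calls among 23 chemokine and inflammation genes (8.7%, median -1.97). Csf1 had 8.34, 2.01 and 3.15 CPM in iPS SSEA1+ cells and 254, 466 and 913 CPM in iPS SSEA1- cells. The d12 libraries had 15.5, 28.1 and 43.4 CPM in SSEA1+ cells and 374, 462 and 305 CPM in SSEA1- cells, so that both SSEA1+ groups were far below both SSEA1- groups. Its gap change was -3.2 ± 0.65 (adjusted p = 0.011, edgeR). Blood and macrophage markers moved with single libraries: the mean level of the 16 tested markers was 1.06, 4.04 and 1.1 in iPS SSEA1- cells and 1.39, 3.74 and 2.01 in d12 SSEA1- cells, and 1.01 to 1.53 in the SSEA1+ libraries. None of these markers was called, and their part in the chemokine values was not tested.

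Of the 24 genes of FGF signalling and its feedback, Spry4 and Fgf15 were called (8.33%) by changes in different fractions. In this list 5 genes were called negative and 1 positive without iPS SSEA1- replicate 3 (median -1.05, against -0.79 with it). Spry4, an inhibitor that ERK signalling induces, had 7.06, 12.6 and 18.1 CPM in iPS SSEA1+ cells and 59.4, 66.3 and 45.4 CPM in iPS SSEA1- cells. Among d12 libraries it had 74, 99.2 and 117 CPM in SSEA1+ cells and 141, 116 and 178 CPM in SSEA1- cells. Both fractions had lower levels at the iPS stage, SSEA1+ cells by more (steps -2.94 ± 0.25 and -1.34 ± 0.23, gap change -1.59 ± 0.32, adjusted p = 0.01, edgeR). Fgf15, an FGF ligand of embryo and gut, was lowest in d12 SSEA1- cells, at 0.161, 0.387 and 0.118 CPM, and had 10.8, 5.47 and 6.59 CPM in iPS SSEA1- cells. Its SSEA1- step was 5.06 ± 0.75, and its gap was 0.15 ± 0.61 at the iPS stage and 4.27 ± 0.73 at day 12 (gap change -4.12 ± 0.93, adjusted p = 0.024, edgeR).

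Myc, the growth-promoting factor used in many reprogramming cocktails, dropped in both fractions and more so in SSEA1+ cells. It had 3.03, 5.07 and 7.34 CPM in iPS SSEA1+ cells and 22.9, 27.1 and 60.2 CPM in iPS SSEA1- cells. Earlier, at day 12, it had 271, 735 and 651 CPM in SSEA1+ cells and 202, 246 and 459 CPM in SSEA1- cells. The iPS fractions did not overlap, with SSEA1+ cells lower, whereas the day 12 fractions did. The steps were -6.74 ± 0.5 in SSEA1+ cells and -3.04 ± 0.42 in SSEA1- cells, and the gap change was -3.71 ± 0.57 (adjusted p = 0.00084, edgeR), called in all 12 fits with 1 library left out. At days 3, 6 and 9 SSEA1+ cells had 865 ± 84.3, 844 ± 57.3 and 876 ± 49.2 CPM and MEFs had 97.7 ± 9.15 CPM (SD, n = 3 each). Counts per gene do not tell an introduced copy from the cell's own.

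**Figure D4:**
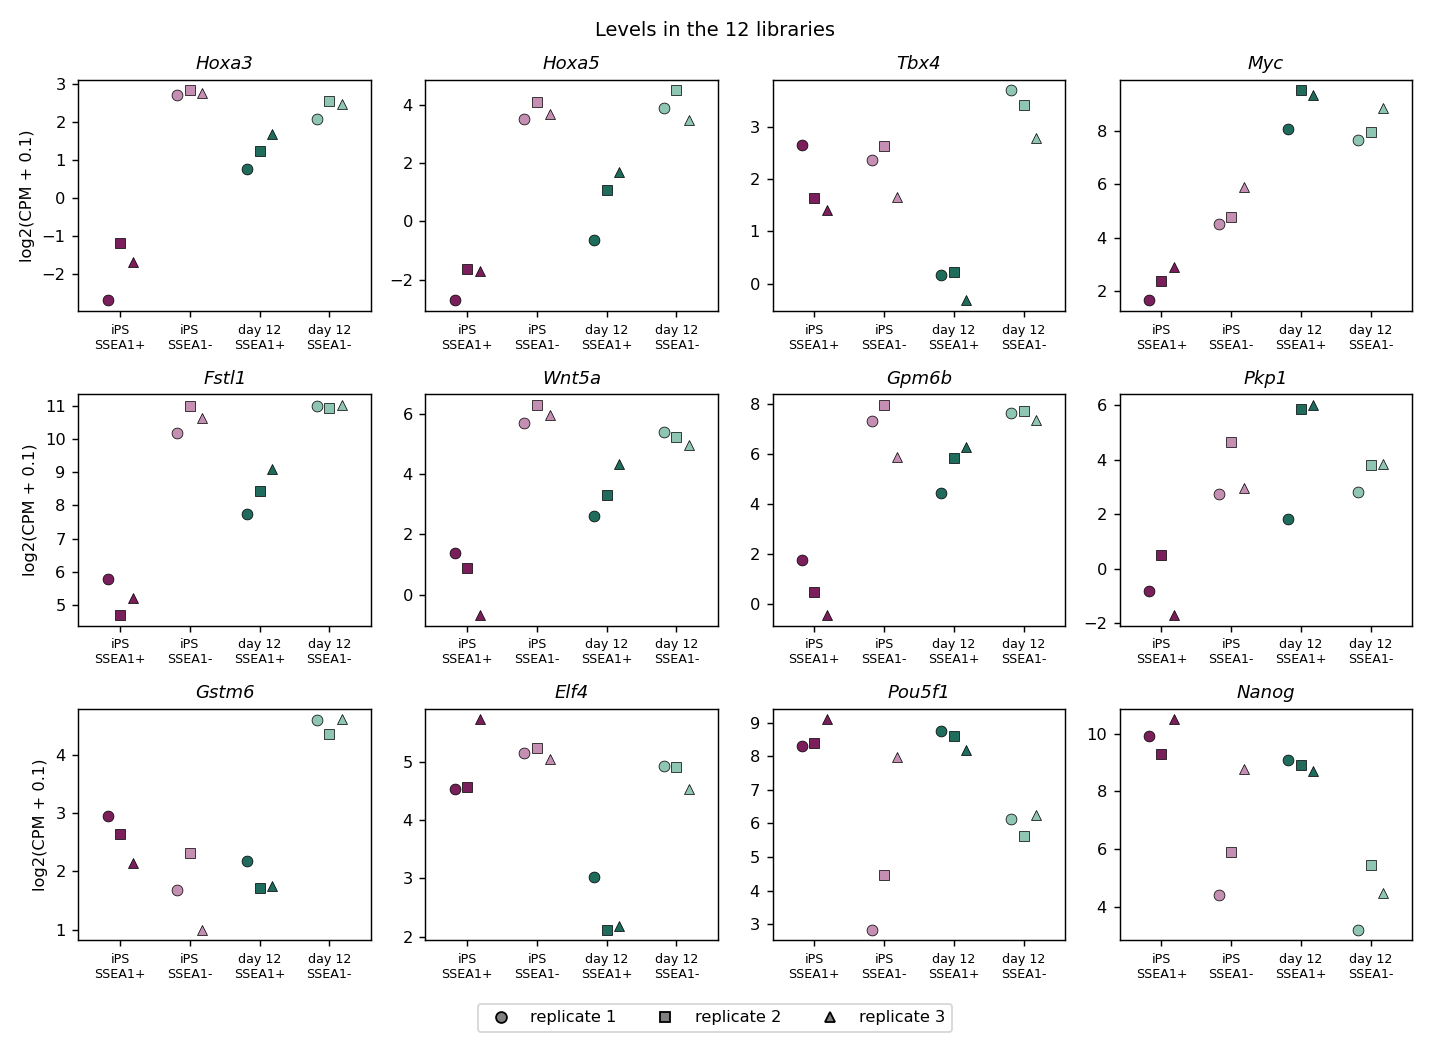
Levels of 12 genes, as log2(CPM + 0.1), in the 12 libraries; each point is 1 library and its shape gives the replicate number. Hoxa3, Hoxa5, Fstl1, Wnt5a, Gpm6b and Pkp1 are lowest in iPS SSEA1+ cells, Tbx4 and Elf4 are lowest in day 12 SSEA1+ cells, Gstm6 is highest in day 12 SSEA1- cells, and iPS SSEA1- replicate 3 (triangle) is near the SSEA1+ libraries for Pou5f1 and Nanog.

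Of the 4 reprogramming factor genes Myc was called (25%), and the others were not. Pou5f1 had 317, 334 and 547 CPM in iPS SSEA1+ cells and 7.07, 21.9 and 253 CPM in iPS SSEA1- cells. In the d12 groups it had 429, 385 and 293 CPM in SSEA1+ cells and 69.7, 49.6 and 75.7 CPM in SSEA1- cells. Replicate 3 alone lifted the iPS SSEA1- group. The gap change came to -0.42 ± 0.91 (adjusted p = 0.9) with all libraries and 2.32 (adjusted p = 0.021, edgeR) without that replicate, where it was called. Sox2 (-1.09 ± 0.95) and Klf4 (-0.17 ± 0.51) were not called with or without it.

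The same library changed the sign of the medians of pluripotency genes. Of 22 naive pluripotency genes, 21 were higher in SSEA1+ cells at the iPS stage and all 22 at day 12, 0 were called for the gap change (0%) and 20 had a negative value, with a median of -1.46. Without iPS SSEA1- replicate 3 the median was 0.41 and 2 genes were called positive. The list level was 7.45, 7.3 and 7.63 in iPS SSEA1+ cells and 3.11, 3.85 and 6.46 in iPS SSEA1- cells, and 7.33, 7.06 and 6.62 in d12 SSEA1+ cells and 2.97, 3.95 and 3.58 in d12 SSEA1- cells. Late pluripotency genes such as Zfp42 and Dppa5a gave a median of -2.1 over 17 genes, none called, and 0.02 without that replicate. Germline genes rose in both fractions, 14 of 26 in SSEA1+ and 19 in SSEA1- cells, and none was called for the gap change, with a median of -0.82 that was 0.64 without it.

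**Figure D5:**
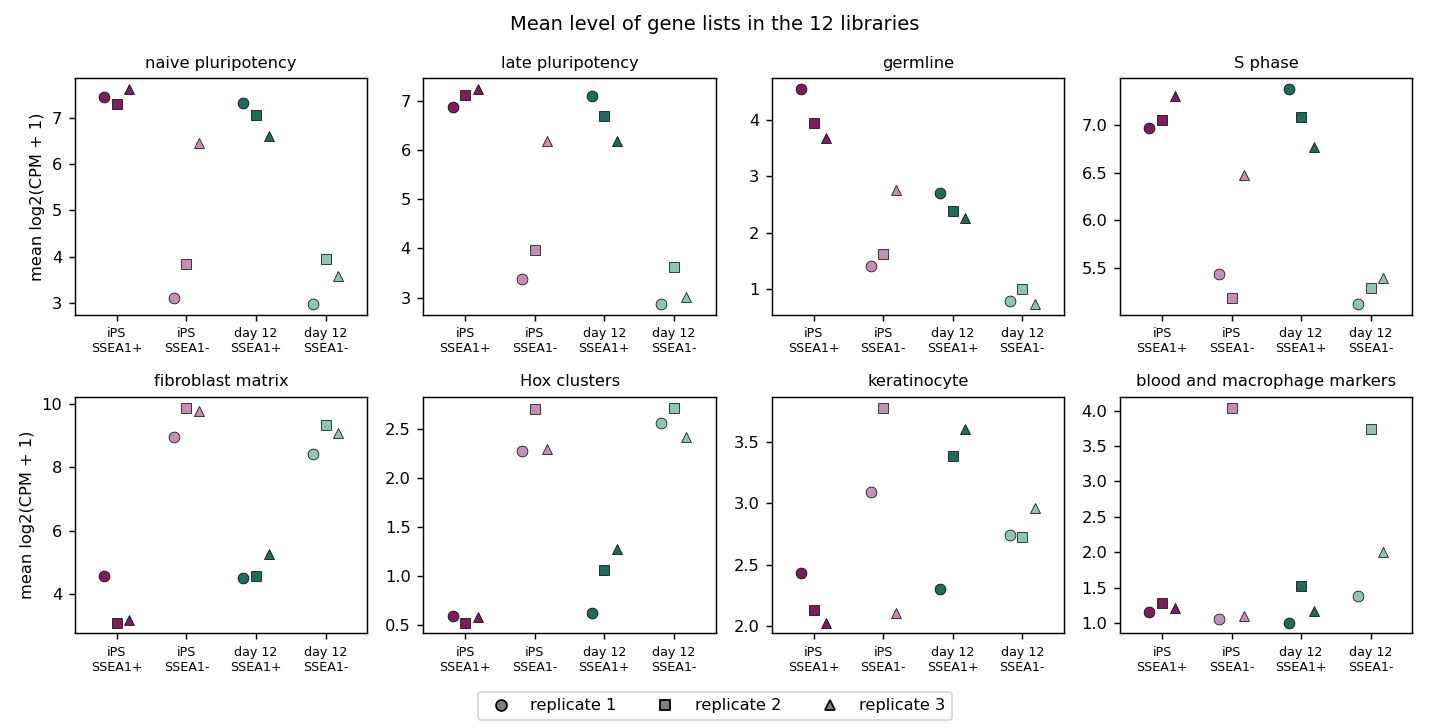
Mean level, as mean log2(CPM + 1) over the tested genes of a list, of 8 lists in the 12 libraries; each point is 1 library and its shape gives the replicate number. iPS SSEA1- replicate 3 (triangle) reaches 6.46 for naive pluripotency while the other 2 libraries of its group are at 3.11 and 3.85, and the blood and macrophage markers stand out in replicate 2 of both SSEA1- groups.

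Epithelial and differentiation genes mostly lay on the negative side without being called. Of 30 epithelial genes, 12 were higher in SSEA1+ cells at the iPS stage and 24 at day 12, and 1, Dsg2, was called (3.33%, median -1.37). Dsg2, a desmosomal cadherin, had 94.4, 76.4 and 76.4 CPM in iPS SSEA1+ cells and 23.7, 29.6 and 33 CPM in iPS SSEA1- cells. It had 90.4, 82.2 and 85.6 CPM in d12 SSEA1+ cells and 9.27, 9.35 and 7.11 CPM in d12 SSEA1- cells. The gap narrowed as SSEA1- cells rose (step 1.74 ± 0.33), while the SSEA1+ groups overlapped (gap change -1.81 ± 0.45, adjusted p = 0.035, edgeR). Of the 12 fits without 1 library, 3 called it.

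Keratinocyte genes (22 tested, 0 called, 0%) had a median gap change of -1.83, with 5 members falling in SSEA1+ cells. Their level was 2.43, 2.13 and 2.03 in iPS SSEA1+ cells and 2.3, 3.39 and 3.61 in d12 SSEA1+ cells, so that day 12 replicate 1 was near the iPS libraries. In iPS SSEA1- cells it was 3.09, 3.78 and 2.11. Without replicate 3 of that group 4 keratinocyte genes were called negative (median -2.12). Neural genes (20 tested) had 1 call, Fabp7 (5%, median -2.17), and 5 negative calls without iPS SSEA1- replicate 3 (median -2.27). Fabp7, a fatty acid carrier of neural progenitors, had 58.3, 9.27 and 0.857 CPM in iPS SSEA1- cells, and its gap change of -5.61 ± 1.41 (adjusted p = 0.035, edgeR) ran from -9.96 to -3.46 as libraries were left out. Endoderm genes, such as Gata4 (-1.87 ± 1, adjusted p = 0.43), were negative in 22 of 22 and called in none (median -1.5). Without d12 SSEA1+ replicate 1 the median was -0.42, and that of 17 streak and mesoderm genes was -0.37, against -1.44 with it. That library stood apart, with an endoderm list level of 4.28 against 3.03 and 3.12 in the others of its group, and a streak and mesoderm level of 2.4 against 0.9 and 1.01. Foxc1, a mesodermal forkhead factor, was the 1 call in that list (5.88%), with -2.41 ± 0.62 (adjusted p = 0.039, edgeR), and Sall2 the 1 among 13 primed epiblast genes (7.69%), with -2.22 ± 0.52 (adjusted p = 0.024). Foxc1 was called in 4 and Sall2 in 5 of the 12 fits that left out 1 library, and Sall2 had -1.39 (adjusted p = 0.087, edgeR) without d12 SSEA1+ replicate 1.

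Among the named genes with the largest negative gap changes were several with higher levels in d12 SSEA1+ cells than in iPS SSEA1+ cells. Pkp1, the desmosomal plaque protein plakophilin 1, had 0.478, 1.34 and 0.21 CPM in iPS SSEA1+ cells and 6.66, 24.8 and 7.63 CPM in iPS SSEA1- cells. Its day 12 levels were 3.49, 57.5 and 64.7 CPM in SSEA1+ cells and 7.02, 13.9 and 14.4 CPM in SSEA1- cells. The iPS SSEA1+ libraries lay below all others, and d12 SSEA1+ replicate 1 lay far below the rest of its group. The gap was called at both stages and turned, at -4.27 ± 0.82 at the iPS stage and 1.83 ± 0.69 at day 12 (gap change -6.1 ± 1.07, adjusted p = 0.0037, edgeR). In SSEA1+ cells the mean had been 3.92 ± 0.282, 8.19 ± 3.27 and 29.7 ± 10.9 CPM at days 3, 6 and 9 (SD, n = 3 each).

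Slc39a8, a zinc and manganese importer, turned likewise. It had 5.68, 6.8 and 0.157 CPM in iPS SSEA1+ cells and 30.1, 42.9 and 3.46 CPM in iPS SSEA1- cells, and 71.4, 58.6 and 101 CPM in d12 SSEA1+ cells and 21.5, 15.4 and 17.2 CPM in d12 SSEA1- cells. Replicate 3 was lowest in both iPS groups, and the gap change was -4.69 ± 1.05 (adjusted p = 0.018, edgeR). Trh, the precursor of thyrotropin-releasing hormone, had 21.3, 82 and 27.4 CPM in iPS SSEA1+ cells and 51, 216 and 114 CPM in iPS SSEA1- cells, with overlap. It had 555, 210.5 and 109 CPM in d12 SSEA1+ cells and 47.8, 36.6 and 9.94 CPM in d12 SSEA1- cells, without overlap. Its gap change was -4.76 ± 0.95 (adjusted p = 0.009, edgeR). The SSEA1+ step of Trh was called (-2.74 ± 0.68), and its SSEA1- step of 2.01 ± 0.66 was not.

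Gpm6b, a membrane glycoprotein of the proteolipid family, was lower in SSEA1+ cells at both stages. It had 3.24, 1.28 and 0.629 CPM in iPS SSEA1+ cells and 158, 249 and 58.9 CPM in iPS SSEA1- cells, against 21.5, 56.2 and 76.8 CPM in d12 SSEA1+ cells and 197, 209.8 and 164 CPM in d12 SSEA1- cells. The SSEA1+ step was -4.9 ± 0.55 and the SSEA1- step -0.3 ± 0.45 (gap change -4.61 ± 0.69, adjusted p = 0.00072, edgeR). Gypc, a glycophorin of the membrane skeleton, and Kcnj2, an inward rectifier potassium channel, had gap changes of -4.33 ± 0.75 (adjusted p = 0.0031) and -5.25 ± 1.02 (adjusted p = 0.0079, edgeR). Both fell in SSEA1+ cells, to 0.425, 0.223 and 0.262 CPM for Gypc and 0.266, 0.279 and 0.105 CPM for Kcnj2. These iPS values rest on 17 and 12 reads. Day 12 levels of Kcnj2 in SSEA1+ cells were 1.06, 2.51 and 4.25 CPM. In SSEA1- cells Kcnj2 was higher at the iPS stage (16, 22.9 and 8.42 CPM) than at day 12 (4.22, 6 and 4.36 CPM), without overlap. That step was not called (1.7 ± 0.65). Bcl2, an inhibitor of apoptosis named after its values were seen, had 1.01, 0.669 and 0.367 CPM in iPS SSEA1+ cells and 4.66, 15.9 and 26.1 CPM in d12 SSEA1+ cells (gap change -3.35 ± 0.6, adjusted p = 0.0043, edgeR). Casp8, the initiator caspase of death receptors and named likewise, had a gap change of the same sign (-3.28 ± 0.46, adjusted p = 0.00034).

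Grb10, an imprinted adaptor that restrains growth factor receptors, was the 1 call among 26 imprinted genes (3.85%). It had 184, 216 and 150.4 CPM in iPS SSEA1+ cells and 1014, 1076 and 403 CPM in iPS SSEA1- cells. The day 12 fractions lay close, at 756, 819 and 1028 CPM in SSEA1+ cells and 1036, 1075 and 1159 CPM in SSEA1- cells. Its gap change was -1.85 ± 0.35 (adjusted p = 0.0062, edgeR) and -2.14 without iPS SSEA1- replicate 3. Cd24a, a surface sialoglycoprotein, was called among 20 surface markers beside Cd44 (10%), with -3.43 ± 0.88 (adjusted p = 0.039, edgeR), and in 3 of the 12 fits that left out 1 library. Its levels were 33, 26.9 and 17.1 CPM in iPS SSEA1+ cells and 284, 220.1 and 51.8 CPM in iPS SSEA1- cells, and 136, 186 and 253 CPM in d12 SSEA1+ cells and 174, 90.4 and 121 CPM in d12 SSEA1- cells.

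Some negative values came from a rise in SSEA1- cells. Ina, a neuronal intermediate filament protein, averaged 9.95 ± 8.2 CPM in iPS SSEA1- cells and 1.44 ± 0.66 CPM in d12 SSEA1- cells (SD, n = 3 each), without overlap, and its SSEA1+ step was not called (gap change -3.93 ± 0.93, adjusted p = 0.027, edgeR). Mthfd2, a mitochondrial folate enzyme and ATF4 target, had 36.7, 48.2 and 94.6 CPM in iPS SSEA1- cells and 11.7, 17.4 and 10.1 CPM in d12 SSEA1- cells. Its gap change was -1.97 ± 0.5 (adjusted p = 0.037) and -1.42 (adjusted p = 0.094, edgeR) without iPS SSEA1- replicate 3, where it was no longer called. Bmpr1b, a type I BMP receptor, turned, with 1.01, 1.78 and 0.367 CPM in iPS SSEA1+ cells and 5.01, 2.36 and 3.43 CPM in iPS SSEA1- cells, and 2.4, 0.893 and 0.84 CPM in d12 SSEA1+ cells and 0.483, 0.774 and 0.314 CPM in d12 SSEA1- cells. It was the 1 call among 23 BMP and Id genes (4.35%), with -3.16 ± 0.76 (adjusted p = 0.028, edgeR).

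Positive gap changes were split between the fractions: of the 71 genes, 30 had only the SSEA1- step called, 20 only the SSEA1+ step, 3 both and 18 neither. Gstm6, a glutathione transferase, had 7.65, 6.18 and 4.3 CPM in iPS SSEA1+ cells and 3.12, 4.88 and 1.9 CPM in iPS SSEA1- cells. It had 4.44, 3.19 and 3.27 CPM in d12 SSEA1+ cells and 24.1, 20.6 and 24.4 CPM in d12 SSEA1- cells, the one group that stood clear of the others. This gave a gap change of 3.54 ± 0.6 (adjusted p = 0.0024, edgeR). Gstm6 belongs to a family of related genes, and whether reads were shared among them was not tested. Irak3, a brake on Toll-like receptor signalling, had 15.9, 26.6 and 18.1 CPM in iPS SSEA1- cells and 88, 93.7 and 96.6 CPM in d12 SSEA1- cells, while the SSEA1+ groups overlapped (gap change 2.14 ± 0.45, adjusted p = 0.013, edgeR).

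Tmprss5, a membrane serine protease, fell in both fractions and most in SSEA1- cells. It had 1.91, 3.18 and 4.83 CPM in iPS SSEA1+ cells and 0.858, 0.589 and 0.931 CPM in iPS SSEA1- cells. Among d12 libraries it had 3.24, 18 and 34.7 CPM in SSEA1+ cells and 85.5, 56.8 and 150.1 CPM in SSEA1- cells. The order of the fractions was opposite at the 2 stages, with a gap of 2.03 ± 0.73 at the iPS stage and -2.39 ± 0.64 at day 12 (gap change 4.42 ± 0.97, adjusted p = 0.016, edgeR). MEFs had 0.128 ± 0.0647 CPM and d6 SSEA1- cells 83.5 ± 30.8 CPM (SD, n = 3 each). Arl4d, a small GTPase, turned too, with 18.5, 11.6 and 32.4 CPM in iPS SSEA1+ cells and 9.88, 5.73 and 10.5 CPM in iPS SSEA1- cells, and 8.01, 12.9 and 23.2 CPM in d12 SSEA1+ cells and 31.7, 34.9 and 89.1 CPM in d12 SSEA1- cells (3.08 ± 0.63, adjusted p = 0.012, edgeR).

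Oas2, an interferon-induced enzyme that senses double-stranded RNA, changed in opposite directions in the fractions. It had 4.3, 6.52 and 9.55 CPM in iPS SSEA1+ cells and 1.23, 4.23 and 1.71 CPM in iPS SSEA1- cells, and 2.55, 1.62 and 1.59 CPM in d12 SSEA1+ cells and 10, 7.84 and 7.03 CPM in d12 SSEA1- cells. The steps were 1.82 ± 0.56 in SSEA1+ cells and -1.8 ± 0.56 in SSEA1- cells, both called (gap change 3.62 ± 0.8, adjusted p = 0.017, edgeR). It was the 1 call among 28 interferon and antigen presentation genes (3.57%, median -0.24). Tek, the angiopoietin receptor, was the 1 call among 15 endothelial markers (6.67%) and had 28.8, 13.6 and 24.7 CPM in iPS SSEA1+ cells and 13.4, 20 and 13.6 CPM in iPS SSEA1- cells. Earlier, at day 12, it had 17.6, 41.3 and 48 CPM in SSEA1+ cells and 137, 109 and 115 CPM in SSEA1- cells (gap change 2.28 ± 0.53, adjusted p = 0.025, edgeR).

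Elf4, an ETS factor, rose in SSEA1+ cells, and Slc4a11, a membrane transporter named after its values were seen, rose in SSEA1+ cells (step 1.05) and fell in SSEA1- cells (step -1.01). Elf4 had 23.2, 23.8 and 53.1 CPM in iPS SSEA1+ cells and 35.4, 37.8 and 33.3 CPM in iPS SSEA1- cells. It had 8.01, 4.25 and 4.43 CPM in d12 SSEA1+ cells, the lowest group without overlap, and 30.5, 30 and 23 CPM in d12 SSEA1- cells. The SSEA1+ step was 2.58 ± 0.32 and the gap change 2.23 ± 0.43 (adjusted p = 0.0071, edgeR). Slc4a11 had 74.3, 55.3 and 47.2 CPM in iPS SSEA1+ cells and 10.9, 9.75 and 15.5 CPM in iPS SSEA1- cells, whereas the day 12 fractions overlapped at 22.4, 29.7 and 33.4 CPM in SSEA1+ cells and 27.8, 21.2 and 23.8 CPM in SSEA1- cells (gap change 2.06 ± 0.37, adjusted p = 0.0043, edgeR). Both were called in each of the 12 fits that left out 1 library.

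Sesn1, a p53 target that restrains growth signalling, was the 1 call among 21 CDK inhibitor and p53 genes (4.76%, median 0.29). It had 23.3, 29.9 and 41.1 CPM in iPS SSEA1+ cells and 27.9, 34.4 and 19.7 CPM in iPS SSEA1- cells, with overlap, and 19.5, 14.3 and 21.3 CPM in d12 SSEA1+ cells and 46.2, 36.9 and 46.4 CPM in d12 SSEA1- cells, without. The gap change of 1.43 ± 0.34 (adjusted p = 0.028, edgeR) was called in 6 of the 12 fits that left out 1 library. Myc was also the 1 call among 22 AP-1 and immediate early genes (4.55%, median -0.66), and Mthfd2 the 1 among 24 genes of the ATF4 and unfolded protein response (4.17%, median -0.37).

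Cell cycle, metabolic and chromatin lists held no called gap change. Of 24 S phase genes, 16 were higher in SSEA1+ cells at the iPS stage and 22 at day 12, and of 24 G2 and M phase genes 23 and 24 were, with median gap changes of -0.59 and -0.28. Without iPS SSEA1- replicate 3 these medians were 0.03 and 0.12, with no calls. Glycolysis genes (23 tested, median -0.05), respiratory chain subunits (32, 0.05), LIF and STAT3 genes (23, -0.1), Polycomb (29, -0.13), BAF (20, -0.38) and DNA methylation genes (16, -0.52) had 0 calls each. Without that library, 3 glycolysis genes were called positive and 1 negative (median 0.55). The medians were then 0.31 for the respiratory chain, 0.21 for LIF and STAT3 and 0.15 for Polycomb, with 0 calls each. They were -0.15 for BAF and -0.06 for DNA methylation genes, also with 0 calls each. Trophoblast genes (18, -0.55) and cardiac and smooth muscle genes (18, -1.31) had none either, and without that library 2 trophoblast genes were called negative (median -0.82). Not being called does not show that a gap stayed the same.

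Genes that make SSEA1 were not called. Fut9, the fucosyltransferase that closes the SSEA1 structure in mouse embryonic stem cells, had 35.5, 50.5 and 20.9 CPM in iPS SSEA1+ cells and 3.74, 3.59 and 13.3 CPM in iPS SSEA1- cells. In the d12 groups it had 33.3, 54 and 65.8 CPM in SSEA1+ cells and 9.95, 12.2 and 11.6 CPM in SSEA1- cells. SSEA1+ cells were higher at both stages without overlap, and the gap change was 0.19 ± 0.69 (adjusted p = 0.95, edgeR), or 1.15 (adjusted p = 0.4) without iPS SSEA1- replicate 3. Of 18 genes of the list, 0 were called (0%) with all libraries, and 1 was called negative without that replicate.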

How the data were processed

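The labels gave each library's group and replicate number. The authors deposited raw counts of reads per Ensembl gene for each library. Per the submitters' processing notes, HTSeq 0.6.0, STAR 2.3.0 and Picard 1.100 were used, with no role stated, on the build mm9; no annotation release is given in the sources used here. The library kit marks strand, per the labels' protocols, but the deposited files are named as counted without it. No other source speaks of this, so a gene and its antisense partner cannot be told apart by strand.

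Each file lists 37583 genes, and GENCODE M21 gave symbols for 32860. It was used for names, chromosomes and GC content only, since it belongs to another build. Lines that name no gene stayed out: in the 12 libraries, 7.45 to 15.51% of uniquely aligned reads were in no annotated gene, 2.41 to 2.84% were ambiguous, and 19.97 to 27.24% of all reads aligned several times. No pair of libraries of 1 group agreed within sampling noise.

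Counts of the 33 libraries entered 1 group-means model in edgeR 4.0.16 (quasi-likelihood, R 4.3.3, TMM scaling, filterByExpr, robust, 22 residual degrees of freedom), and p-values were adjusted by Benjamini-Hochberg over 17326 genes. Standard errors are the log2 fold divided by the square root of F. The script was tested on simulated data. Gene symbols of Ctgf and Pcgf4 were matched by synonym, and 10 listed symbols had no ID of that name. Named genes were the 14 largest gap changes in each direction among called genes with at least 10 CPM in the highest group and 1 sign in every combination of 1 library per group, up to 8 genes whose called gaps turned in each direction, up to 3 called members of each of 37 lists, and a set of standard marker genes. The members, lists and rule were chosen with earlier results of these data known. Alternatives were median-of-ratios scaling, DESeq2 1.42.0, no filter on low counts, the 12 libraries alone, a replicate block, removal of a GC trend, both together, and leaving out each library.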

Additional observations from a re-analysis of the deposited data

Results flagged for a closer look

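These results are differences between groups under 1 contrast, the sort at the iPS stage against the sort at day 12, each tested by the interaction in edgeR's quasi-likelihood fit. In all, 321 genes passed. Values are log2 gap changes, and no cause was weighed.

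Of the genes with the largest negative values, Pkp1 (-6.1), Kcnj2 (-5.25), Trh (-4.76), Gpm6b (-4.61), Gypc (-4.33) and Sema6d (-3.9) were called in all 12 fits that left out 1 library. So was Hoxb3os (-4.24), whose reads cannot be told by strand from those of Hoxb3, its antisense partner. Slc39a8 (-4.69), Aldh1a1 (-4.58), Pcdhb17 (-4.4), Cnrip1 (-4.39), Kcnj3 (-4.37), Smoc2 (-4.25) and Ina (-3.93) lost their call in some of them. Cnrip1 had 2 reads and Pcdhb17 4 reads in all iPS SSEA1+ libraries together, so their fitted values depend on the prior count, and Pcdhb17 belongs to a cluster of near-identical genes. Hoxb3os had 5 reads and Aldh1a1 8 reads in those libraries together, so their sizes too rest on few reads.

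Of the genes with the largest positive values, Gstm6 (3.54), Tbx4 (3.17), Cdhr1 (3.01), Elf4 (2.23) and Irak3 (2.14) were called in all 12 such fits. Aspa (4.46), Ttll6 (4.45), Tmprss5 (4.42), Zmynd15 (3.49), Arl4d (3.08), Kank4 (2.88), Gngt2 (2.39), Tek (2.28) and Radil (2.08) were called in 1 to 11 of them.

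Genes whose called gaps turned from lower to higher in SSEA1+ cells further included ENSMUSG00000084810 (4.26), Oas2 (3.62), Nwd1 (3.43) and Papolb (3.05). Those that turned the other way included Jakmip2 (-6.96), Scn9a (-4.24) and Bmpr1b (-3.16). Of the 12 fits that left out 1 library, 12 called ENSMUSG00000084810, 11 Papolb, 9 Oas2, 7 Bmpr1b, 3 Jakmip2, 2 Nwd1 and 1 Scn9a. Jakmip2 had 5.28 CPM in d12 SSEA1+ replicate 1 and 0.34 and 0.373 CPM in the other libraries of that group, and without it the gap change was -4.48 (adjusted p = 0.27, edgeR). Scn9a had 5 reads in all iPS SSEA1+ libraries.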

How the results depend on the processing

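The number of genes called for the gap change, 321, was 307 with median-of-ratios scaling, 223 without a filter, 356 with the GC trend removed, 648 with DESeq2, 0 with the 12 libraries alone, 497 with a replicate block and 577 with the block and the GC trend removed. Each of these calls fewer or more genes from the same counts. Of the 321 genes, all that could be fitted kept their sign in every setting. These settings share most of their counts, so kept signs add little support. Of the called genes 102 had fitted gaps of opposite sign, against 225 with DESeq2, 56 without a filter, 0 with the 12 libraries alone, 169 with the block and 212 with the block and the GC trend removed. Of the 102, both gaps were called in 5 negative and 7 positive genes. The 12 libraries alone called 565 genes for the SSEA1- step, against 1250. With 1 library left out the ranges were 135 to 645 for the gap change, 38 to 247 for gaps of opposite sign, 5029 to 7802 for the iPS gap, 5434 to 6452 for the day 12 gap, 871 to 2022 for the SSEA1+ step and 478 to 1371 for the SSEA1- step. The cause was not tested. The 12-library fit takes its spread from fewer libraries and from these 4 groups only, and the parts of both were not tested.

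Direction turned for genes that were not called. With 1 library left out, Pou5f1 ran from -0.91 to 2.32, Sox2 from -2.18 to 0.19, Klf4 from -0.51 to 0.71, Nanog from -2.4 to 0.42 and Esrrb from -2.65 to 0.44, each highest without iPS SSEA1- replicate 3, and Fut9 ran from -0.13 to 1.15. Over the named genes, 592 values under other settings kept direction and call, 85 lost and 16 gained a call. With 1 library left out, 954 kept both, 215 lost and 9 gained a call and 10 reversed.

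Equal replicate numbers were not taken to pair the 4 groups, since same-numbered deviations from the group means did not all correlate above 0.1: 10 of 18 did. They were 0.03, -0.04 and -0.2 between iPS SSEA1- and d12 SSEA1+ cells, but 0.38, 0.45 and 0.27 between the SSEA1- groups and 0.19, 0.18 and 0.24 between the day 12 fractions, where all were above it. For these comparisons the block gave 1615 calls of the SSEA1- step, against 1250, and 6620 of the day 12 gap, against 6227. A library correlated best with its own number in 26 of 36 cases, a hint from the data and not the design. Counts limit genes near 0.167 CPM.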

Other observations

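Xist, the RNA that silences 1 X chromosome in female cells, had 17.1, 48.2 and 12.1 CPM in iPS SSEA1+ cells and 547, 921 and 158 CPM in iPS SSEA1- cells. At day 12 it had 96.3, 303 and 624 CPM in SSEA1+ cells and 738, 989.8 and 566 CPM in SSEA1- cells. All iPS SSEA1+ libraries lay below all others, and the day 12 fractions overlapped. The SSEA1+ step was called (-3.73 ± 0.77), while the gap change of -3.23 ± 1 was not (adjusted p = 0.098, edgeR) with all libraries and was called without iPS SSEA1- replicate 3 (-3.63, adjusted p = 0.039). Of 656 tested X-linked genes 6 were called in each direction, with a median gap change of -0.01, beside -0.16 over 16024 autosomal genes.

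Smoc2, a calcium-binding matricellular protein, had 68.7, 96.1 and 167 CPM in iPS SSEA1- cells and 34.3, 33 and 21.8 CPM in d12 SSEA1- cells, without overlap. In iPS SSEA1+ cells it had 0.956, 0.446 and 0.525 CPM, and in d12 SSEA1+ cells 8.59, 0.595 and 0.606 CPM, so that 1 library set that group. The gap change was -4.25 (adjusted p = 0.021, edgeR), and -1.8 (adjusted p = 0.31) without that library, d12 SSEA1+ replicate 1, where it was not called. Lama4, a laminin chain of basement membranes named after its values were seen, had 6.32, 1.34 and 2.31 CPM in iPS SSEA1+ cells and 26, 64.4 and 145 CPM in d12 SSEA1+ cells (gap change -3.27 ± 0.68, adjusted p = 0.012, edgeR). Rnf213, a large ubiquitin ligase named likewise, had 99.7, 105 and 110.3 CPM in iPS SSEA1+ cells and 39.3, 71.3 and 39.9 CPM in iPS SSEA1- cells. At day 12 it had 24.4, 32.9 and 59.6 CPM in SSEA1+ cells and 71.6, 67.5 and 72.7 CPM in SSEA1- cells, the opposite order without overlap at both stages (gap change 1.92 ± 0.36, adjusted p = 0.0062, edgeR).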
